A study of Homo sapiens with 12 samples.

Results

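The 10 genes described here fill, empty and refill the calcium store of the endoplasmic reticulum (ER), and were taken by name from the count table of a prostate cancer cell line: the pumps ATP2A2, ATP2A3 and ATP2C1, the release channels ITPR1, ITPR2 and ITPR3, the calcium sensors STIM1 and STIM2, and the plasma membrane channels ORAI1 and ORAI3. All 10 were among the 21439 genes of the table and all 10 passed the filter on low counts, which left 17823 genes. DU145 is an established human prostate cancer line that grows without androgen. The table holds 12 RNA-seq libraries in 4 groups of 3. The siCtrl group received Allstar control siRNA and the siATF6 group an siRNA against ATF6, each followed by 24 h of culture. The DMSO group received solvent and the Ceapin group 10 μM Ceapin-A7, each for 12 h; Ceapin-A7 is a compound that keeps ATF6 from leaving the ER. One label field lists an siRNA for the solvent and Ceapin libraries too, although their treatment text gives none. All 4 groups were given 30 nM thapsigargin for the last 3 h, an inhibitor of the ER calcium pumps, so every level below is one of pump-inhibited, ER-stressed cells and no unstressed cells were measured.

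ER calcium is far above that of the cytosol because SERCA pumps (encoded by the ATP2A genes) drive calcium in. IP3 receptors (ITPR genes) let it out when phospholipase C makes IP3, and STIM proteins sense the emptied store and open ORAI channels, which refill it from outside. Thapsigargin blocks the pump, the store leaks empty, and calcium-dependent chaperones fail; ATF6 then leaves the ER, is cleaved in the Golgi and acts as a transcription factor at ER stress response elements (ERSE) of chaperone genes.

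The promoter of ATP2A2, the gene that fell in both comparisons below, is described first, and its part in that fall was not tested. RefSeq promoter windows (build GRCh38.p14, from 250 bases before to 50 after an annotated start) were at hand for 7 of the 10 genes; ATP2A3, ITPR2 and ORAI1 had no entry in the table used. ERSE was searched on both strands as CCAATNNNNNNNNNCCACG, a motif that contains the 5-base core CCACG, which was also searched by itself. No window of the 7 genes held an exact ERSE, which 0.0769% of 35116 windows held. A search that allowed 1 difference, added after the windows were seen, found a site in ATP2A2 and in none of the other 6 genes; 1.55% of all windows, and 2.54% of the 11933 tested genes that have a window, held one. Of the 2 ATP2A2 windows, only the second held the site. It begins 63 bases before the start and differs from the motif by G19A, counted from 1 at the motif's 5′ end. Its window lies at chr12:110280997-110281296 on the plus strand, and capitals mark the fixed letters of the site and, upstream of it, 1 CCACG core read on the opposite strand.
ATP2A2 promoter: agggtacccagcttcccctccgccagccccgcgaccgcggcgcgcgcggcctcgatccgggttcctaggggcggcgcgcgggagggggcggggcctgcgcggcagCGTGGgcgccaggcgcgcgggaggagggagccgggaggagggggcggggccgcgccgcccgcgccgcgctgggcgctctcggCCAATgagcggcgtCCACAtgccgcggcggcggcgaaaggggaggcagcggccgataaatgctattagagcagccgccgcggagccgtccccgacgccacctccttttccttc

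The same search found a site in 6 of 12 genes for calcium-binding proteins of the ER lumen. Those of HSPA5 and CALR are shown beside that of ATP2A2 to compare the letters, with the fixed positions in capitals. Of those not shown, the only site of SDF4 had 1 difference (C15T), and HSP90B1 held both exact sites and sites with 1 difference. The ATP2A2 site (chr12:110281184-110281202, plus strand) ends in A, whereas those of HSPA5 (chr9:125241391-125241409, minus strand), which encodes the chaperone BiP, and CALR (chr19:12938384-12938402, minus strand), which encodes calreticulin, match every fixed letter.
ATP2A2: CCAATgagcggcgtCCACA
HSPA5: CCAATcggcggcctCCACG
CALR: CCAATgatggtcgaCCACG

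A match in these letters is a description of the window and not a measured binding site. The CCACG core was present in at least 1 window of ATP2A2, ITPR1, STIM1 and STIM2, 4 of the 7 genes, and in 55.9% of the 11933 tested genes that have a window. The second form of ERSE (ATTGGNCCACG) and the site TGACGTGG were in no window of the 7 genes; 0.0541% and 0.729% of all windows held them.

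Sequencing depth was even, at 17760878 to 19202632 counts per library. ATF6 mRNA was 123, 126 and 125 CPM (counts scaled to a common library size, with TMM factors) in siCtrl libraries and 26.6, 25.6 and 25.0 CPM in siATF6 libraries; it fell by 79.3%. In the compound arm it was 71.4 ± 1.99 CPM in DMSO and 72.9 ± 1.91 CPM in Ceapin libraries (SD, n = 3), with no call between them. The epithelial markers KRT8, KRT18, KRT19, EPCAM and CDH1 were detected in every library, and PTPRC, CD3E, CD68, DCN and LUM were not among the genes of the table. The summed level of the 5 epithelial markers was 501 to 520.1 CPM in siCtrl, 444 to 473 in siATF6, 1386 to 1426 in DMSO and 1338 to 1401 in Ceapin libraries; 4 of the 5 fell after ATF6 siRNA and CDH1 fell after Ceapin-A7. Of all tested genes, 15.3% fell after ATF6 siRNA and 2.41% after Ceapin-A7. Over the 12 libraries CDH1 ran from 261 to 2793 counts, KRT8 from 2813 to 12591 and KRT19 from 2304 to 2984. The part of these marker differences in the results below was not tested. These are bulk libraries, in which fewer cells of a kind and less RNA per cell cannot be told apart.

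Levels can be compared between genes only per length, here as CPM per kilobase of the longest coding transcript. On that scale 1 SERCA gene, 1 release channel gene and 1 refill channel gene stood far above their relatives. ATP2A2, which encodes the widely expressed pump SERCA2, stood at 187 CPM per kb over all 12 libraries. ITPR3 followed at 33.7, ATP2C1 at 29.2, ORAI1 at 23.9, STIM1 at 13.6 and STIM2 at 12.4 CPM per kb. The low group was ORAI3 at 2.68, ITPR2 at 2.62, ITPR1 at 2.38 and ATP2A3, the pump SERCA3, at 0.805 CPM per kb. Neighbours differed by less than their SD in some groups: in siCtrl libraries ITPR2 (2.58 ± 0.181) and ITPR1 (2.46 ± 0.168), and in Ceapin libraries STIM1 (12.7 ± 0.171) and STIM2 (12.6 ± 0.239). By group means ORAI1 stood above ATP2C1 in the compound arm and below it in the siRNA arm. In replicate 2 alone of each compound arm group ORAI1 was the lower (DMSO 24.5 against 24.8, Ceapin 23.7 against 23.8 CPM per kb). Dividing by the union of all exons instead exchanged STIM1 with STIM2 and ORAI3 with ITPR2 in the order. ATP2A2 and ITPR3 still led, at 60.5 and 33.7 CPM per kb.

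**Figure D1:**
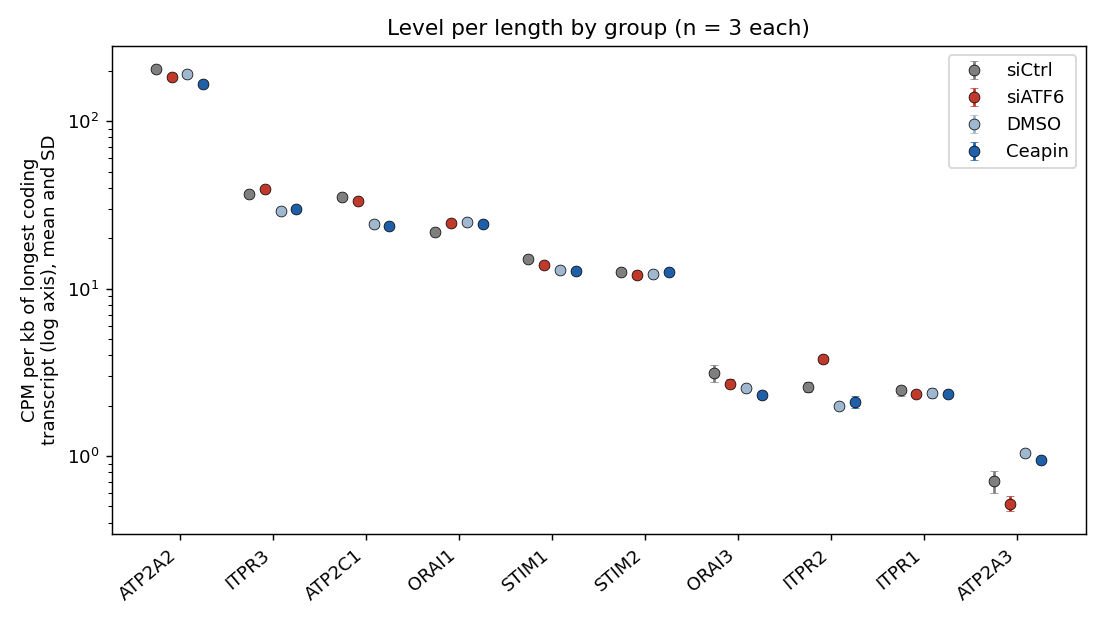
Level per length of each gene (CPM per kb of the longest coding transcript, log axis) as mean and SD of 3 libraries in each of the 4 groups. ATP2A2 lies above all other genes in every group, and ATP2A3 below all others, with higher levels in the DMSO and Ceapin groups.

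After ATF6 siRNA, 3 of the 10 genes rose and 4 fell by edgeR's quasi-likelihood test with Benjamini-Hochberg adjusted p under 0.05 over all tested genes, and 3 did not pass. Of all tested genes, 31.4% were called in this comparison, 16.1% higher and 15.3% lower. The release channels ITPR2 and ITPR3 and the refill channel ORAI1 rose, while the 3 pumps and the sensor STIM1 fell. ITPR2 rose by 46.9% and ATP2A3 fell by 26.5%. The other 5 changes were smaller and lay between ATP2C1, which fell by 4.47%, and ORAI1, which rose by 13.2%. The median log2 fold change over the 10 genes was −0.07, and that over all tested genes was 0.00. The medians of the absolute log2 fold change were 0.141 and 0.147. With DESeq2 in place of edgeR 4 of the 10 passed, namely ATP2A2, ITPR2, ITPR3 and ORAI1.

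After Ceapin-A7, 1 of the 10 genes fell and none rose at the same threshold, against 4.62% of all tested genes called, 2.21% higher and 2.41% lower. The 1 gene was ATP2A2, also by DESeq2 and limma-voom, and it alone had an unadjusted edgeR p under 0.05. The other 9 had 95% intervals of the log2 fold change that reached no lower than −0.40 and no higher than 0.22. The median log2 fold change was −0.04, and that over all tested genes was 0.00. The medians of the absolute log2 fold change were 0.0413 and 0.0772.

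**Figure D2:**
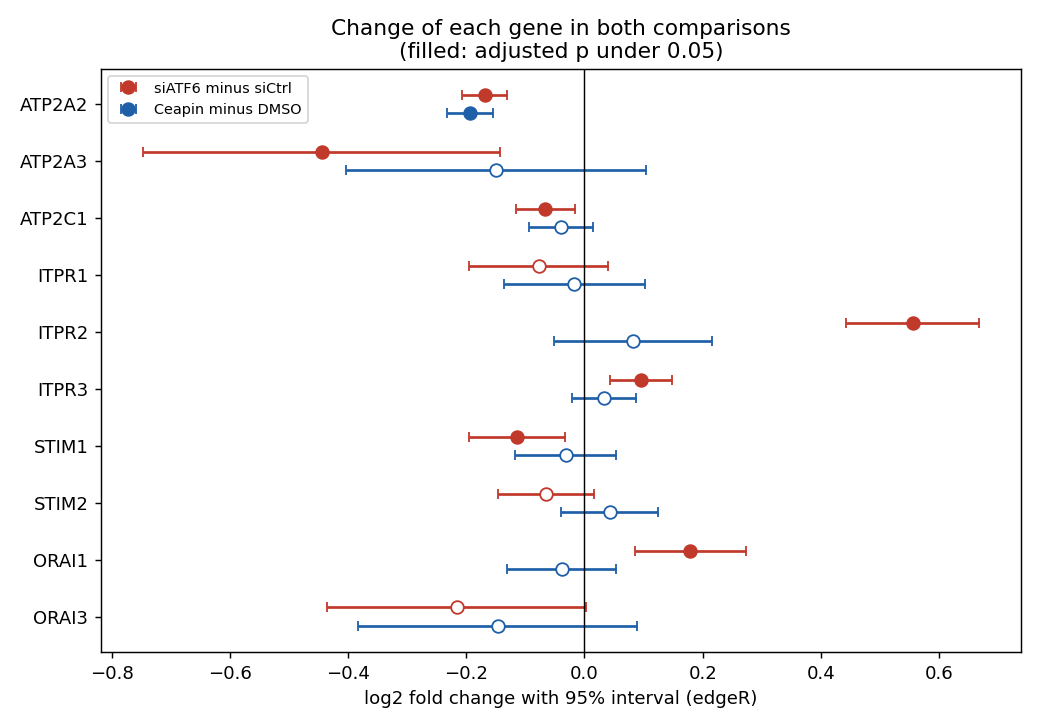
Log2 fold change of each gene with its 95% interval from edgeR, for siATF6 minus siCtrl (red) and Ceapin minus DMSO (blue); filled points have an adjusted p under 0.05. ATP2A2 is filled in both comparisons at −0.17 and −0.19, and ITPR2 stands apart on the right at 0.55 after ATF6 siRNA.

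ATP2A2 (chromosome 12, 110280756 to 110351093, plus strand) is the pump that thapsigargin blocks. Its level was 925, 910.3 and 907 CPM in siCtrl and 814, 817 and 808 CPM in siATF6 libraries. It was 854, 859 and 848 CPM in DMSO and 741, 753 and 746 CPM in Ceapin libraries. In each comparison all 3 treated libraries lay below all 3 controls, with a gap several times the spread within a group. It fell by 11.0% after ATF6 siRNA (log2 fold change −0.17, SE 0.0187, adjusted p = 7.3e-09). After Ceapin-A7 it fell by 12.5% (−0.19, SE 0.0188, adjusted p = 6.2e-09). The difference between these effects was 0.02 on the log2 scale, with a 95% interval from −0.03 to 0.08 and an adjusted p of 0.58. These comparisons share no library, but both came from 1 fit whose estimate of spread used all 12 libraries. The call held in both comparisons when any 1 of the 12 libraries was left out.

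ATP2A3 (chromosome 17, 3923870 to 3964464, minus strand) encodes SERCA3, best known from blood cells and some epithelia. It had 42 to 94 counts per library, the fewest of the 10 genes. Its level was 3.23, 3.04 and 4.01 CPM in siCtrl and 2.70, 2.21 and 2.63 CPM in siATF6 libraries. It was 5.19, 5.03 and 4.93 CPM in DMSO and 4.66, 4.53 and 4.46 CPM in Ceapin libraries. Treated libraries lay below their controls in both comparisons, but only the siRNA effect passed (−0.44, SE 0.148, adjusted p = 0.020); the Ceapin-A7 effect was −0.15 (SE 0.124, adjusted p = 0.64). The difference between the effects was −0.30 with a 95% interval from −0.69 to 0.10. The siRNA call was lost without siCtrl replicate 3 (−0.31, adjusted p = 0.21), without siATF6 replicate 2 (−0.37, adjusted p = 0.11) and with DESeq2 (adjusted p = 0.085); over all alternatives that changed the fit the adjusted p ran from 0.013 to 0.21.

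ATP2C1 (chromosome 3, 130850595 to 131016712, plus strand) encodes SPCA1, which loads the Golgi with calcium and manganese and is much less sensitive to thapsigargin than SERCA. Its level was 179.5, 177 and 176 CPM in siCtrl, 172, 167 and 170.0 CPM in siATF6, 123, 126 and 124 CPM in DMSO and 121, 121 and 120.5 CPM in Ceapin libraries. The treated libraries lay below their controls in both arms by a small margin, and the larger step was between the arms. The siRNA effect was −0.07 (SE 0.0241, adjusted p = 0.035) and the Ceapin-A7 effect −0.04 (SE 0.0268, adjusted p = 0.52). The siRNA call was lost with any 1 of siCtrl replicates 1 and 3, siATF6 replicates 2 and 3 and Ceapin replicate 2 left out, with DESeq2 size factors and with DESeq2, where adjusted p was 0.12, and the adjusted p ran from 0.015 to 0.12. The gene overlaps ASTE1 on the opposite strand, and the labels do not say whether reads were counted by strand.

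Among the 10 genes, ATP2C1 was the 1 whose longest annotated 3′ untranslated region (GENCODE v29, GRCh38) held the 7 bases GAGTCAT, at position 1465 of 1800. They are shown because 20.7% of the genes that fell after ATF6 siRNA carried them, against 8.54% of all 13450 tested genes with such a region and 4% of those that rose. The regions also differed in length, with medians of 2207 bases in genes that fell, 1355 in all and 1178 in genes that rose, and the part of length in these shares was not tested. For the 10 genes, 1 carrier is near the share of all tested genes. A 6-base part of the 7 bases was also in ATP2A3, ITPR1, STIM2 and ITPR2, the last of which rose. Such a part was in 66.8% of the genes that fell, 43.9% of all and 35.6% of those that rose. ATF6 itself carried 2 copies; the first is shown beside the copy in ATP2C1, in the direction of the transcript, with the 7 bases in capitals.
ATP2C1 (chromosome 3): atctattctttGAGTCATtgttactgagg
ATF6 (chromosome 1): caatgttatgtGAGTCATtcttaagtgtt

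ITPR2 (chromosome 12, 26336515 to 26833198, minus strand) encodes the IP3 receptor subtype with the highest affinity for IP3, and it had the largest change of the 10 genes in either comparison. Its level was 29.8, 27.2 and 31.2 CPM in siCtrl and 41.3, 45.7 and 42.4 CPM in siATF6 libraries. It was 23.1, 23.5 and 21.7 CPM in DMSO and 24.7, 25.6 and 21.9 CPM in Ceapin libraries. The siATF6 libraries stood above all other libraries, and the DMSO and Ceapin libraries overlapped. The rise after ATF6 siRNA was 0.55 on the log2 scale ( SE 0.0549, adjusted p = 6.6e-10), and the Ceapin-A7 effect was 0.08 (SE 0.0653, 95% interval −0.05 to 0.22, adjusted p = 0.62). The effects differed by 0.47 (SE 0.0855, adjusted p = 6.6e-05), and both the siRNA call and the difference held with each of the 12 libraries left out in turn.

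ITPR3 (chromosome 6, 33620365 to 33696574, plus strand), the subtype common in secretory epithelia, was at 357, 372 and 356 CPM in siCtrl and 375, 391 and 394 CPM in siATF6 libraries. It was 278, 288 and 299.5 CPM in DMSO and 296, 299.7 and 289.8 CPM in Ceapin libraries. The siATF6 libraries lay just above the siCtrl libraries, and those of the compound arm were lower and overlapped. The siRNA effect was 0.10 (SE 0.0255, adjusted p = 0.0038), the Ceapin-A7 effect 0.03 (SE 0.0268, adjusted p = 0.63), and the difference between them 0.06 with a 95% interval from −0.01 to 0.14. ITPR3 overlaps UQCC2 on the opposite strand. ITPR1 (chromosome 3, 4493345 to 4847840, plus strand), the main subtype of neurons, was at 27.0, 23.7 and 24.6 CPM in siCtrl and 23.6, 23.9 and 23.8 CPM in siATF6 libraries. It was 23.4, 23.4 and 26.1 CPM in DMSO and 23.5, 24.4 and 24.2 CPM in Ceapin libraries. All 4 groups of ITPR1 overlapped, with effects of −0.08 (95% interval −0.20 to 0.04) and −0.02 (−0.14 to 0.10).

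IP3 receptors work as tetramers of like or mixed subunits, so their proportions were set side by side. ITPR3 made up 87.9% ± 0.862 of the summed level per length of the 3 genes in siCtrl and 86.5% ± 0.329 in siATF6 libraries (SD, n = 3). The ITPR2 share was 6.18% ± 0.520 in siCtrl and 8.35% ± 0.327 in siATF6 libraries, and 5.95% ± 0.419 in DMSO and 6.14% ± 0.376 in Ceapin libraries. The lowest siATF6 share, 8.08%, lay above the highest siCtrl share, 6.64%. The summed level was 41.7 ± 0.614 CPM per kb in siCtrl and 45.3 ± 1.19 in siATF6 libraries, and 33.6 ± 1.16 in DMSO and 34.4 ± 0.679 in Ceapin libraries. ITPR3 made up most of the summed level in every group. With lengths from all exons, the ITPR2 share was 5.81% in siCtrl and 7.81% in siATF6 libraries.

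**Figure D3:**
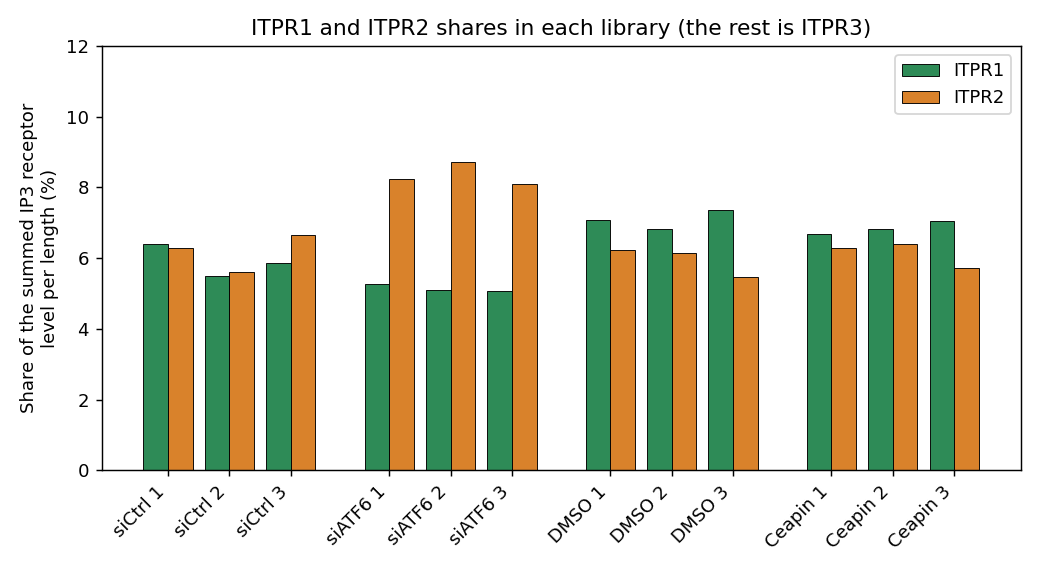
Share (%) of ITPR1 and ITPR2 in the summed level per length of the 3 IP3 receptor genes, in each of the 12 libraries; ITPR3 makes up the rest. ITPR2 takes 8.08% to 8.71% in the 3 siATF6 libraries and at most 6.64% in the other 9.

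STIM1 (chromosome 11, 3854527 to 4093210, plus strand) is the main sensor that opens ORAI1 when the store is empty. Its level was 66.0, 66.3 and 62.8 CPM in siCtrl, 57.6, 60.3 and 62.5 CPM in siATF6, 59.7, 53.7 and 56.3 CPM in DMSO and 55.8, 54.5 and 55.7 CPM in Ceapin libraries. The highest siATF6 library nearly reached the lowest siCtrl library, and the compound arm overlapped. The siRNA effect was −0.11 (SE 0.0397, adjusted p = 0.027) and the Ceapin-A7 effect −0.03 (SE 0.0418, adjusted p = 0.79). The siRNA call was lost without siCtrl replicate 1 or 2, without siATF6 replicate 1 (−0.08, adjusted p = 0.18) and with DESeq2, and the adjusted p ran from 0.012 to 0.18. STIM2 (chromosome 4, 26857678 to 27025381, plus strand), which responds to smaller losses of ER calcium, was at 64.0, 65.4 and 65.6 CPM in siCtrl and 58.5, 62.3 and 65.7 CPM in siATF6 libraries. It was 63.6, 60.4 and 65.7 CPM in DMSO and 66.6, 64.4 and 64.5 CPM in Ceapin libraries. Its groups overlapped in both comparisons, and the effects were −0.06 (95% interval −0.15 to 0.02) and 0.04 (−0.04 to 0.12).

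ORAI1 (chromosome 12, 121626550 to 121642677, plus strand) forms the pore of the calcium release-activated channel. Its level was 30.9, 33.3 and 32.9 CPM in siCtrl and 35.8, 36.9 and 37.3 CPM in siATF6 libraries. It was 38.0, 36.7 and 38.0 CPM in DMSO and 36.5, 35.4 and 37.8 CPM in Ceapin libraries. The siCtrl libraries were the 3 lowest of the 12, and the other groups overlapped. The rise after ATF6 siRNA was 13.2% (0.18, SE 0.0461, adjusted p = 0.0026), the Ceapin-A7 effect was −0.04 (SE 0.0453, adjusted p = 0.77), and the effects differed by 0.22 (SE 0.0646, adjusted p = 0.012). ORAI3 (chromosome 16, 30949066 to 30956461, plus strand), a related pore subunit, was at 6.74, 7.79 and 6.24 CPM in siCtrl and 6.34, 5.64 and 5.93 CPM in siATF6 libraries. It was 5.80, 5.48 and 5.65 CPM in DMSO and 4.92, 5.40 and 4.96 CPM in Ceapin libraries. Its effects passed in neither comparison, at −0.22 (95% interval −0.44 to 0.00) and −0.15 (−0.38 to 0.09). ORAI1 made up 87.3% ± 1.16 of the summed ORAI1 and ORAI3 level per length in siCtrl and 90.0% ± 0.686 in siATF6 libraries, and 90.7% ± 0.123 in DMSO and 91.4% ± 0.640 in Ceapin libraries. That sum leaves out the related ORAI2, which was at 18.8 ± 0.938 CPM in siCtrl and 15.1 ± 0.725 CPM in DMSO libraries. The level of ORAI2 was not divided by length, so it is not ranked against ORAI1 and ORAI3.

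**Figure D4:**
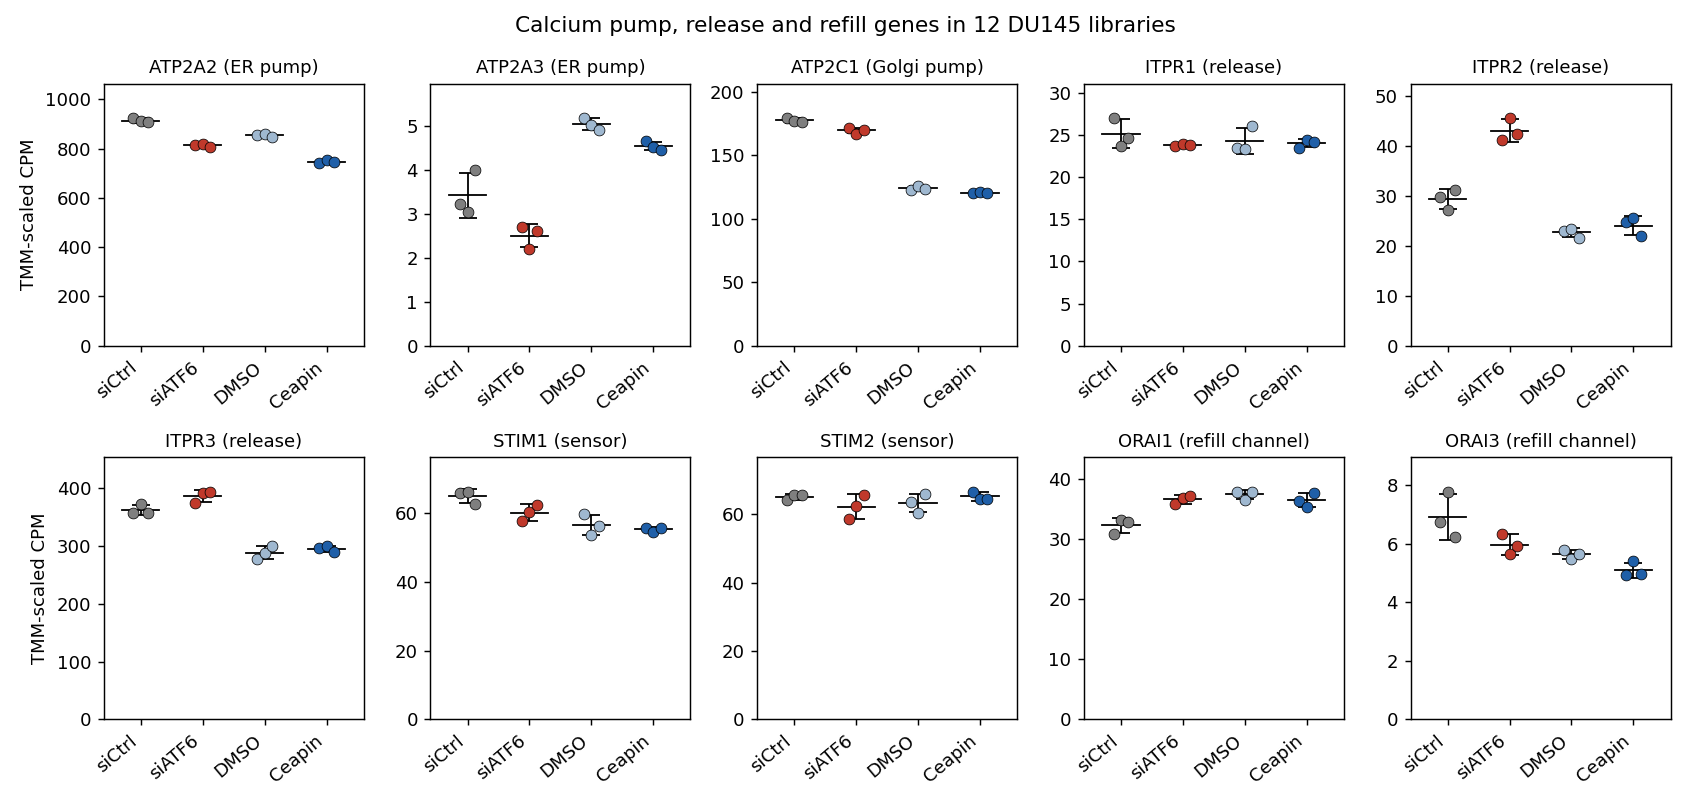
TMM-scaled CPM of each gene in each of the 12 libraries (points) with the mean and SD of each group; every axis starts at 0. ATP2A2 is lower in siATF6 and Ceapin libraries than in their controls, and ITPR2 is high in the 3 siATF6 libraries, at 41.3 to 45.7 CPM.

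The difference between the effects of ATF6 siRNA and Ceapin-A7 passed the threshold for 2 of the 10 genes, ITPR2 and ORAI1, against 23.4% of all tested genes. For the other 8 the adjusted p was between 0.19 and 0.82, and the interval of the difference lay within 0.14 of 0 for ATP2A2, ATP2C1 and ITPR3 alone. The siRNA and compound arms also differed without any treatment of ATF6. Between the control groups, 8 of the 10 genes passed, against 61.9% of all tested genes. ATP2A3 (0.56) and ORAI1 (0.21) were higher in DMSO than in siCtrl libraries, and ATP2C1 (−0.52), ITPR2 (−0.37), ITPR3 (−0.33), ORAI3 (−0.30), STIM1 (−0.20) and ATP2A2 (−0.10) were lower. The ORAI3 call was lost without siCtrl replicate 2 (−0.21, adjusted p = 0.15) or DMSO replicate 2, and with DESeq2. For 6 of these 8 genes, all but ATP2A2 and ITPR2, this step between control groups was larger than the effect of either treatment. Transfection, culture time and solvent differ together between the arms, and the share of counts from mitochondrial genes was 6.65% to 7.49% in the siRNA arm and 9.71% to 10.5% in the compound arm, so these cannot be told apart.

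The genes whose levels followed each called gene most closely over the 12 libraries were sought among tested genes whose mean reached 10 CPM, by the root mean square difference of log2 CPM centred on each gene's mean. For ATP2A2 they were SAT1 (0.0380), ESYT2 (0.0473) and TMED2 (0.0504), for ITPR2 SNX8 (0.0844), VPS26C (0.0937) and SIAH2 (0.0954), and for ORAI1 DPYSL3 (0.0358), NUP153 (0.0365) and NFIC (0.0376). For ATP2C1 they were TXN, CRKL and TMEM245 (0.0214 to 0.0264), for ITPR3 PPFIA1, CELSR3 and BUD23 (0.0320 to 0.0340), and for STIM1 MEAK7, BRD3 and RDX (0.0385 to 0.0431). ATP2A3 had no pattern as close, with LINC01963, PRPS2 and BARD1 at 0.101 to 0.107. The step between the arms enters every one of these distances.

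Around these 10 genes, other calcium genes were set out in 10 lists by role, and 108 of them were tested. After ATF6 siRNA 32 rose and 25 fell, 52.8% of those tested against 31.4% of all tested genes; after Ceapin-A7 2 rose and 13 fell, 13.9% against 4.62%. The median log2 fold change was −0.01 in each comparison. Their median absolute log2 fold change was 0.130 after ATF6 siRNA and 0.0663 after Ceapin-A7, against 0.147 and 0.0772 over all tested genes. The higher shares called thus did not go with larger changes over the 108 genes. The proteins of the ER lumen that bind calcium accounted for 7 of the 13 that fell after Ceapin-A7.

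**Figure D5:**
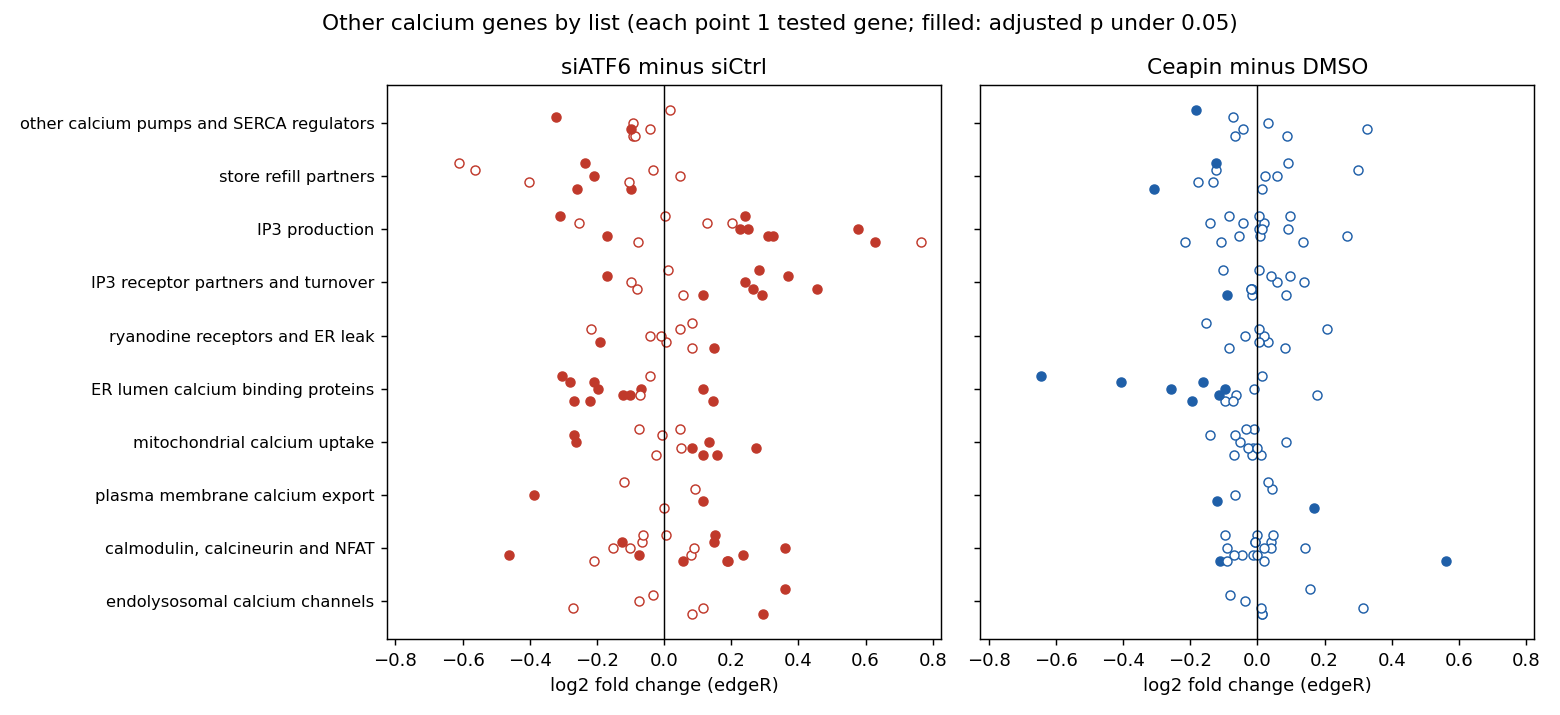
Log2 fold change of each tested gene in the 10 lists after ATF6 siRNA (left) and Ceapin-A7 (right); filled points have an adjusted p under 0.05. In the lists of IP3 production and of IP3 receptor partners 14 genes are filled to the right of 0 after ATF6 siRNA and none after Ceapin-A7. To the left, PLCB1, PLCB3 and ITPRIPL2 are filled after ATF6 siRNA and AHCYL1 after Ceapin-A7. Of all tested genes, 16.1% rose after ATF6 siRNA and 2.21% after Ceapin-A7.

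Of 15 tested genes of IP3 production and removal, 7 rose and 2 fell after ATF6 siRNA, while 6 missed the threshold. Their median log2 fold change was 0.23, and 60% were called, against 31.4% of all tested genes. After Ceapin-A7 0 passed by edgeR, DESeq2 or limma-voom, where 1 had an unadjusted edgeR p under 0.05. By edgeR 4.62% of all tested genes passed there. INPP5A, which removes a phosphate from IP3 and so ends its signal, was at 15.4, 15.4 and 17.6 CPM in siCtrl and 24.3, 25.9 and 24.6 CPM in siATF6 libraries (0.63, SE 0.0695, adjusted p = 7.1e-09). PLCB4, a phospholipase C that makes IP3, rose from 13.3 ± 0.705 to 19.8 ± 0.831 CPM (0.58). Its relatives PLCB3 (−0.17) and PLCB1 (−0.31) fell. The members that rose therefore include genes for enzymes that make IP3 and for enzymes that remove it.

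Of 12 tested partners of the IP3 receptor, 7 rose and 1 fell after ATF6 siRNA (median 0.18), and 1 fell after Ceapin-A7. The shares called were 66.7% and 8.33%, against 31.4% and 4.62% of all tested genes. ERLIN1 and ERLIN2 form the complex that binds activated IP3 receptors and leads them to degradation. ERLIN2 was at 61.7, 58.7 and 57.1 CPM in siCtrl and 79.9, 82.5 and 81.0 CPM in siATF6 libraries (0.46, SE 0.0346, adjusted p = 1.5e-12), and ERLIN1 rose from 125 ± 1.98 to 153 ± 0.966 CPM (0.29). In DMSO and Ceapin libraries ERLIN2 was at 96.8 ± 1.91 and 95.6 ± 0.480 CPM, above the siATF6 level. ITPRIPL2 fell (−0.17). AHCYL1, which competes with IP3 for the receptor, rose after ATF6 siRNA (0.12) and fell after Ceapin-A7 (−0.09, edgeR adjusted p = 0.028), a call that was lost with DESeq2.

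Of 13 proteins of the ER lumen that bind calcium, 9 fell and 2 rose after ATF6 siRNA, and 7 fell and none rose after Ceapin-A7. These include known ATF6 targets. Called were 84.6% and 53.8% of this list, against 31.4% and 4.62% of all tested genes. Its median absolute log2 fold change was 0.145 after ATF6 siRNA and 0.116 after Ceapin-A7, against 0.147 and 0.0772 over all tested genes. HSPA5 fell by 0.30 and by 0.64 on the log2 scale, and HSP90B1, the chaperone GRP94, by 0.28 and 0.41. CALR, the main calcium buffer of the lumen, was at 423, 423 and 418 CPM in siCtrl and 449, 479.8 and 467 CPM in siATF6 libraries, a rise of 0.14 (SE 0.0227, adjusted p = 4.5e-06). It was at 529, 537 and 545 CPM in DMSO and 473, 464 and 472 CPM in Ceapin libraries, a fall of 0.19 (log2 fold change −0.19, SE 0.0224, adjusted p = 1.8e-07). The CALR libraries did not overlap in either comparison and moved in opposite directions. SDF4 rose after ATF6 siRNA (0.12), although its libraries overlapped.

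Among 10 tested partners of store refill, 4 fell and none rose after ATF6 siRNA, and 2 fell after Ceapin-A7. The shares called were 40% and 20%, against 31.4% and 4.62% of all tested genes. SARAF, an ER membrane protein that shuts off refill through STIM1, was at 214, 209.6 and 213 CPM in siCtrl and 181, 177 and 184 CPM in siATF6 libraries. It was at 179, 179 and 175 CPM in DMSO and 158, 164 and 167 CPM in Ceapin libraries. Treated libraries of SARAF lay below their controls in both arms (−0.24, SE 0.0251, and −0.12, SE 0.0262), as did those of SELENOK, a selenoprotein needed for calcium flux in mouse immune cells (−0.26, SE 0.0582, and −0.31, SE 0.0623). ASPH, whose locus also encodes the ER calcium proteins junctin and junctate, fell after ATF6 siRNA (−0.10).

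Of 7 tested other pumps and pump regulators, 2 fell after ATF6 siRNA and 1 after Ceapin-A7. Those are 28.6% and 14.3%, against 31.4% and 4.62% of all tested genes called. DNAJC10, a disulfide reductase reported to activate SERCA2, went from 228 ± 7.42 to 182 ± 1.95 CPM after ATF6 siRNA (−0.32, SE 0.0251), and TMX1, a membrane thioredoxin that binds SERCA2, fell by 0.10. ERP44, a lumen protein that binds ITPR1, fell after Ceapin-A7 (−0.18, SE 0.0379) and stood at 0.02 after ATF6 siRNA. C4orf3, a small membrane peptide that regulates SERCA, was at 62.6 ± 1.56 CPM in siCtrl, 58.7 ± 0.803 in siATF6, 36.7 ± 0.291 in DMSO and 37.4 ± 1.39 in Ceapin libraries and passed in neither comparison. The small SERCA-regulating peptides PLN, SLN, MRLN, STRIT1 and ERLN were not analysed here.

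Beyond the ER, RCAN1, a feedback inhibitor of calcineurin whose gene is switched on by calcium through NFAT, had the largest called effect of the 108 genes after Ceapin-A7 besides HSPA5. It was at 592, 593 and 595 CPM in DMSO and 874, 873 and 879 CPM in Ceapin libraries (0.56, SE 0.0201, adjusted p = 6.2e-20). In siCtrl libraries it was at 830.0, 811 and 824 CPM and in siATF6 libraries at 876, 848 and 839 CPM (0.06, SE 0.0197, adjusted p = 0.028). The Ceapin libraries thus stood near the level of the siRNA arm, and the DMSO libraries below all others. Of 18 tested calmodulin, calcineurin and NFAT genes, 7 rose and 3 fell after ATF6 siRNA, 55.6% against 31.4% of all tested genes. CALM3 (0.36) rose and CALM2 (−0.08) and RCAN2 (−0.46) fell after ATF6 siRNA. CALM2 and CALM3 encode the same protein, calmodulin, and how the counting divided reads between them is uncertain.

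In the remaining lists the plasma membrane pumps moved apart. ATP2B1 rose after Ceapin-A7 (0.17, SE 0.0243) and stood at 0.00 after ATF6 siRNA, whereas ATP2B4 fell after Ceapin-A7 (−0.12, SE 0.0226) and rose after ATF6 siRNA (0.11, SE 0.0202). The exchanger SLC24A1 fell after ATF6 siRNA (−0.39). Of 12 mitochondrial uptake genes 5 rose and 2 fell after ATF6 siRNA, 58.3% against 31.4% of all tested genes. LETM1 was at 0.27, HSPA9 at 0.16, MICU3 at −0.26 and SLC8B1 at −0.27. After Ceapin-A7 limma-voom called 1 of the 12, edgeR and DESeq2 called 0, and the unadjusted edgeR p was under 0.05 for 2. In the list of 9 ryanodine receptor and leak genes PKD2 rose (0.15) after ATF6 siRNA, and of 7 endolysosomal channel genes TPCN1 (0.29) and TMEM175 (0.36) rose. Called were 22.2% of the first list and 28.6% of the second, against 31.4% of all tested genes. In these lists 0 genes passed after Ceapin-A7 by edgeR, DESeq2 or limma-voom, where 1 gene of each list had an unadjusted edgeR p under 0.05. By edgeR 4.62% of all tested genes passed after Ceapin-A7.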

How the data were processed

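Expected counts per gene for 12 libraries were deposited by the authors as whole numbers; per the submitters' processing notes they came from Salmon with genome build hg38, and the version and annotation are not given in the sources used here. Per the labels' protocols the libraries were made with a stranded kit. Every gene in the table has at least 1 count in all libraries. Groups came from the sample titles; columns of the control siRNA were matched by elimination and number.

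Here, edgeR 4.0.16 in R 4.3.3 was run on all 12 libraries (filterByExpr by group, TMM scaling, quasi-likelihood fit, 1 term per group, two-sided tests) after tests on simulated data, and p-values were adjusted over the 17823 tested genes. Standard errors come from the F statistic. No label says that replicates are separate cultures, so p-values measure the spread between these samples, which may be technical. The genes and lists were chosen with earlier results of these data known. Named genes are ATF6, the 10 genes, the markers, up to 2 called genes per list, direction and comparison by smallest p, and the 3 closest patterns; 3 of these genes are not reported here; SELENOK after ATF6 siRNA, RCAN1 after ATF6 siRNA and AHCYL1 after ATF6 siRNA are given beside their Ceapin-A7 values. Positions and lengths are from GENCODE v29 (GRCh38), promoters from RefSeq. Alternatives were DESeq2 1.42.0, limma-voom (limma 3.58.1), other scaling, filters and thresholds, the replicate block and leaving out each library. Figures were drawn with matplotlib 3.10.9.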

Additional observations from a re-analysis of the deposited data

Results flagged for a closer look

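For 27 of the named genes the effect of ATF6 siRNA differed from that of Ceapin-A7 by edgeR's test of the difference itself. The threshold was an adjusted p under 0.05 over all tested genes, with 3 libraries per group. By this test 23.4% of all tested genes passed. From the calcium lists 34 genes were named, by smallest p among those called after ATF6 siRNA or Ceapin-A7. That choice favours a difference between the effects, so the count does not describe calcium genes as a whole. Each value below is the log2 fold change after ATF6 siRNA minus that after Ceapin-A7.

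Of the store genes these were ITPR2 (0.47, adjusted p = 6.6e-05) and ORAI1 (0.22, adjusted p = 0.012). ATF6, the gene the siRNA targets, differed by −2.30 (adjusted p = 1.7e-25).

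Among the other calcium genes the siRNA effect was the higher for ERP44 (0.20), PLCB4 (0.49), INPP5A (0.74), AHCYL1 (0.21), ERLIN1 (0.31), ERLIN2 (0.47), PKD2 (0.23), CALR (0.34), HSPA5 (0.34), HSP90B1 (0.13), HSPA9 (0.15), LETM1 (0.29), ATP2B4 (0.23), CALM3 (0.45) and TPCN1 (0.28). It was the lower for DNAJC10 (−0.25), SARAF (−0.11), ASPH (−0.11), PLCB1 (−0.41), ITPRIPL2 (−0.21), MICU3 (−0.35), ATP2B1 (−0.17), SLC24A1 (−0.32) and RCAN1 (−0.51). The adjusted p of these other genes was between 1.5e-15 and 0.022. CALR, AHCYL1 and ATP2B4 passed in both comparisons with opposite signs, and HSPA5, HSP90B1, SARAF and RCAN1 passed in both with the same sign and unequal size. The arms also differ in transfection, culture time and solvent, which cannot be told apart from these differences.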

How the results depend on the processing

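Of the counts, those of the 10 genes called after ATF6 siRNA (7 with all settings as reported) went to 4 with DESeq2 and 4 with adjusted p under 0.01, and to 2 with an absolute log2 fold change of at least 0.2, where the count after Ceapin-A7 went from 1 to 0, that of other calcium genes from 57 to 32 after ATF6 siRNA and from 15 to 5 after Ceapin-A7. The count of genes whose effects differ went from 2 to 1 with adjusted p under 0.01. Leaving out 1 library at a time gave 5 to 7 of the 10 genes after ATF6 siRNA, 1 after Ceapin-A7, 2 for the difference, 7 to 8 between control groups, 51 to 58 other genes after ATF6 siRNA and 14 to 16 after Ceapin-A7. No called effect of the 10 genes changed sign under any alternative run; in all, 837 values kept their direction and side of the threshold, 29 lost the call, and 4 uncalled values changed sign. Replicate numbers are shared between groups. Deviations of same-numbered libraries had correlations of 0.109, 0.0479 and 0.0171 in the siRNA arm and −0.0382, −0.0618 and 0.0119 in the compound arm. Those of differently numbered libraries ran from −0.128 to 0.0858 and from −0.0640 to 0.104. With 3 libraries per group these values cannot decide whether the numbers pair the libraries. With the replicate block 7 of the 10 genes passed after ATF6 siRNA and 1 after Ceapin-A7, as without it. Depth limits ATP2A3 and ORAI3, with 42 to 151 counts per library. The table has no gene at 0 in a library.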
